A study of Mus musculus with 3 samples.

Results

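The genes described here are 10 immediate early genes of the AP-1, EGR and IER families: Fos, Fosb, Fosl1, Fosl2, Jun, Junb, Jund, Egr1, Ier2 and Ier3. They were taken as every probe set whose array annotation gives a listed gene as its only symbol, which gave 14 probe sets of 45037 and 10 genes of 18193. The cells were 4T1, a mouse mammary carcinoma line kept in RPMI-1640 with 10% FBS, and RNA was measured on 3 Affymetrix Mouse Genome 430 2.0 arrays, 1 for each condition. In co-culture the 4T1 cells grew for 1 week in contact with MSCs, which usually stands for mesenchymal stem cells, and were then isolated from the mixture. In conditioned medium they were grown for 1 week with medium from MSCs (MSC-CM). In regular medium they had neither, and the labels state no time for it. Where the MSCs came from and how the 4T1 cells were separated from them is not stated in the labels. Isolation is recorded for co-culture alone, so contact and isolation cannot be told apart in any value of that array.

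AP-1 is a dimer of basic leucine zipper proteins, most often a FOS family member paired with a JUN family member, and it activates or represses genes that carry its recognition site. FOS proteins cannot pair with each other and need a JUN partner, whereas JUN proteins can also pair among themselves. EGR1 is a zinc finger factor that binds GC-rich sites. Immediate early genes are those whose transcripts appear in response to serum, growth factors or stress without new protein synthesis and usually decay quickly. Some members, Fosl1 and Jund among them, can also be held at a steady level in tumour cells.

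Each value is a MAS5 signal, a linear intensity that combines the probes of a probe set and is scaled per array. A signal of 149.3, the 60th percentile of all signals, is called bright, and signals below 42.4, the 40th percentile, were raised to that floor before log2 differences were taken. A gene counts as higher or lower where its signal differed at least 2-fold and was bright on at least 1 of the arrays compared. Where a gene had several probe sets, the probe set with the largest average signal represented it. There was 1 array per condition, so no difference below has a replicate error or a test, and their number limits the precision. In RNA from a whole culture, fewer cells that use a gene and less RNA per cell cannot be told apart. Probe sets bind their targets with unequal strength, so levels are compared between arrays and not between genes.

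Fos was the member that stood highest above regular medium on the co-culture array, followed by Fosl2, and the remaining members differed less than 2-fold. Of the 10 genes, 9 were bright on at least 1 of these arrays. Of those 9, 2 were higher and 0 were lower in co-culture, against 5.81% of 9393 genes called higher and 2.76% called lower. Fos was among the 9 only through its co-culture signal, so it could be called higher but not lower. The median log2 difference of the 9 was 0.35, and that of all 9393 genes was 0.07 with an interquartile range of -0.26 to 0.42. In conditioned medium 8 of the genes were bright on a compared array, and 0 were higher and 0 were lower, where 0.109% and 0.306% of 9152 genes were called. Their median was 0.07, and that of all genes was 0.01. The co-culture array held the highest of the 3 signals for 8 of the 10 genes. It held the highest signal for 50.7% of 9452 genes bright on at least 1 array. The conditioned-medium array held the highest signal for Ier3 and the lowest for 3 members, against 26.9% and 29.4% of those genes. The regular-medium array held the highest signal for Fosl1 and the lowest for 5 members, against 22.4% and 31.8%. Unlike these shares, the counts of members include Fosb, which was bright on no array. Its highest signal was in co-culture and its lowest in conditioned medium.

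The MSC and fibroblast markers on the same arrays were examined as a sign of other cells. Their summed signal over 14 markers was 11127 in co-culture, 7232 in conditioned medium and 6876 in regular medium, and 2 of the 7 bright markers, Postn and Bgn, were higher in co-culture than in regular medium. All 7 had positive log2 differences from regular medium in co-culture on the probe sets used, from 0.54 for Vcam1 to 2.10 for Bgn. Of these, Bgn, Col1a2 and Pdgfra were bright in this comparison only through co-culture, so their differences could only be positive. Bgn read 12.3 in regular medium, so its 2.10 was taken against the floor. The median of the 7 was 0.89, the value of Col1a2, against 0.07 for all genes, so the brightness filter raised it. The markers bright on both arrays had 0.54 for Vcam1, 0.56 for Nt5e, 0.65 for Eng and 1.24 for Postn. Other bright probe sets of Vcam1 and Nt5e reached -0.40 and -0.72. Col1a1, Pdgfrb, Thy1, Dcn and Mgp, which MSCs usually make, lay below the floor on all 3 arrays. Among these, Col1a1, Dcn and Mgp read highest in co-culture, Pdgfrb in conditioned medium and Thy1 in regular medium. The co-culture signal of Col1a1, 41.9, was just under the floor. The macrophage and leukocyte markers summed to 826.9, 738.6 and 759.4 over 6 genes in the same order of arrays, and the 5 endothelial markers to 347.5, 288.7 and 336.9. Of the 5 smooth muscle and pericyte markers, which summed to 481.5, 366.1 and 449.8, Acta2 was called higher and Cspg4 lower against regular medium on both the co-culture and the conditioned-medium arrays. Acta2 read 278.3, 157 and 42.4, and Cspg4 read 36, 27.8 and 188.9. In regular medium Acta2 was at the floor, so it could only be called higher. Cspg4 was bright in regular medium alone, so it could only be called lower. Of 10 epithelial markers of 4T1 cells, 9 were bright, Krt18 among them with 21097, 19115 and 18723, and Krt14 was the member called lower in co-culture. The part of these markers in the differences of the AP-1 and EGR genes was not tested.

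**Figure D1:**
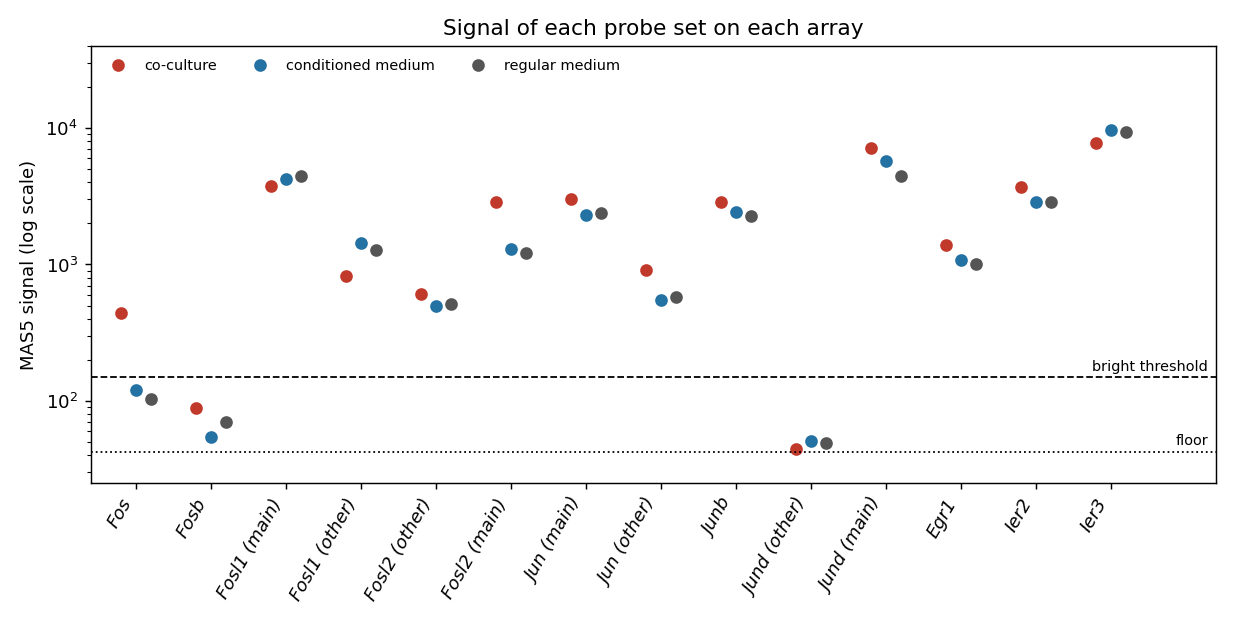
MAS5 signal (log axis) of the 14 probe sets on the co-culture (red), conditioned-medium (blue) and regular-medium (grey) arrays, 1 point per array, with the bright threshold of 149.3 dashed and the floor of 42.4 dotted. Fos lies below the bright threshold at 120.0 and 103.5 in conditioned and regular medium and above it at 440.2 in co-culture.

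The sequences upstream of Fos, Fosl2 and Jun are printed because Fos and Fosl2 are the members called higher in co-culture and Jun is the founding partner of FOS proteins. Each is the 250 bases before the annotated start, 5′ to 3′ on the gene's strand, from RefSeq on build GRCm38.p6. That of Fos is chr12:85473640-85473889 on the plus strand, that of Fosl2 chr5:32136222-32136471 on the plus strand and that of Jun chr4:95052223-95052472 on the minus strand. Capitals mark TGACG on either strand and TATAAA in Fos, GCGNGGGCG on either strand in Fosl2, and TGACATCA on either strand in Jun.
Fos: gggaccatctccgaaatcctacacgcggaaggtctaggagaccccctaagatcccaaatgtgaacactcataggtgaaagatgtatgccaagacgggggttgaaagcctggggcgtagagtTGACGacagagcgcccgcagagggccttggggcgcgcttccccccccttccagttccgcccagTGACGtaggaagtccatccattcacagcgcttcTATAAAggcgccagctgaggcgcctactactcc
Fosl2: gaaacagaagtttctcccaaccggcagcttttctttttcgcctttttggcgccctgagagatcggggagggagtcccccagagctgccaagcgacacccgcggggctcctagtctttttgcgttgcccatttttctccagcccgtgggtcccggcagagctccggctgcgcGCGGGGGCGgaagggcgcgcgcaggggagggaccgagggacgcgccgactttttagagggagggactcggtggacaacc
Jun: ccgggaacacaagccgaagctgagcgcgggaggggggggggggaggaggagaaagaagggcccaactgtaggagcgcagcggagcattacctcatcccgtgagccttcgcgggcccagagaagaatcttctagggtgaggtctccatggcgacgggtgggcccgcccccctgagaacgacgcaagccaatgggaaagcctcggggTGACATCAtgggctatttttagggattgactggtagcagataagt

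RefSeq promoters were matched for 7 of the 10 genes, namely Fos, Fosb, Fosl2, Jun, Junb, Jund and Ier3. TGACG, the core that CREB and ATF factors bind, begins 129 and 66 bases before the start of Fos, and it was also found in Fosb and Junb. It occurs in 17.8% of 32851 promoter windows of this length. TATAAA, searched on the gene's strand only, begins 33 bases before the start of Fos and is in 7.59% of windows. TGACATCA, a variant AP-1 site, begins 45 bases before the start of Jun and is in 2.93% of windows. GCGNGGGCG, a form of the EGR site, was found in Fosl2 and Fosb and is in 4.7% of windows. The AP-1 site TGANTCA, the full cyclic AMP site TGACGTCA, which contains TGACG, and the CArG box of serum response factor were found in 0 of the 7 windows, against 6.75%, 1.55% and 1.47% of all windows. These are matches of letters within the windows searched.

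Fos, the FOS family member that gave the family its name, has 1 probe set. Its signal was 440.2 in co-culture, 120.0 in conditioned medium and 103.5 in regular medium. The co-culture signal alone was bright, and the conditioned-medium array lay near that of regular medium. Fos was 4.25-fold higher in co-culture than in regular medium, a log2 difference of 2.09, and 86 of the 9393 genes differed more in that direction. Against conditioned medium it was 3.67-fold higher in co-culture, a log2 difference of 1.88, with 109 of 9350 genes ahead of it. These values share the co-culture array. In conditioned medium against regular medium the log2 difference was 0.21, between signals that were both below 149.3.

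Fosb encodes a close relative of FOS with its own transactivation domain. Its signals were 88.1 in co-culture, 54.2 in conditioned medium and 69.9 in regular medium, all above the floor and below the bright threshold. It could therefore not be called in any comparison, and its log2 differences from regular medium were 0.33 in co-culture and -0.37 in conditioned medium. With the floor raised to the 60th percentile both became 0, since all its signals then lay at the floor.

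Fosl2 encodes FRA-2, a FOS relative that lacks the strong transactivation domain of FOS, and its probe sets differed in size. Probe set 1437247_at, the brighter, read 2867 in co-culture, 1287 in conditioned medium and 1217 in regular medium. Its co-culture signal stood apart from the other arrays, and it was 2.36-fold higher than in regular medium and 2.23-fold higher than in conditioned medium. Probe set 1422931_at read 605.9 in co-culture, 498.8 in conditioned medium and 511.4 in regular medium. This probe set had a log2 difference of 0.24 from regular medium, against 1.24 for the other, so that the call on Fosl2 holds for 1 of its 2 probe sets. The gap between them of 0.99 exceeded that of 88.5% of 2646 genes with 2 bright probe sets, whose median gap was 0.35. Averaged over its probe sets, the log2 difference was 0.74 and Fosl2 was not called.

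Fosl1 encodes FRA-1, a FOS relative that is often abundant in invasive breast cancer cells, and its signals ran the other way. Probe set 1417487_at read 3763 in co-culture, 4213 in conditioned medium and 4467 in regular medium, and the co-culture array was the lowest of the 3. Its log2 difference from regular medium was -0.25 in co-culture and -0.08 in conditioned medium. Probe set 1417488_at read 820.9 in co-culture, 1428 in conditioned medium and 1268 in regular medium, with log2 differences of -0.63 and 0.17. The co-culture array was the lowest for both probe sets, by less than 2-fold, while the order of the other arrays differed between them. In co-culture against regular medium 6993 of 9393 genes lay above the value of the first of these.

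**Figure D2:**
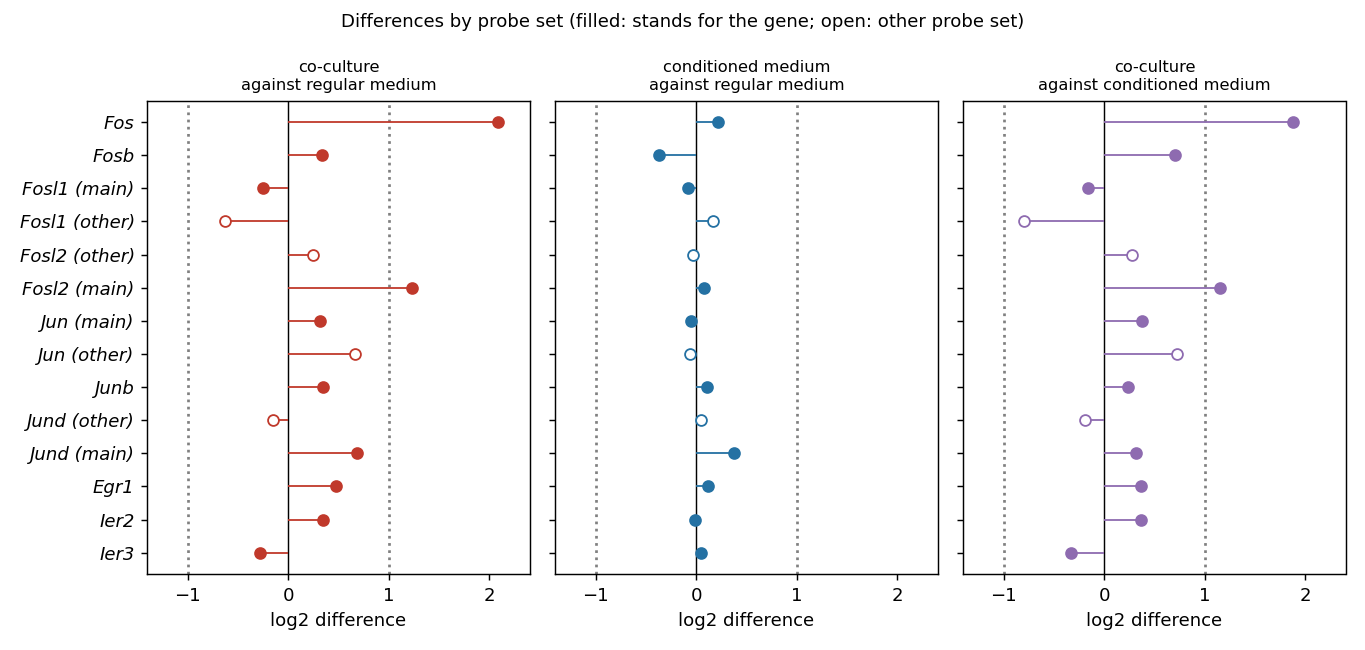
Log2 difference of each probe set (rows) in the 3 comparisons (panels), with filled points for the probe set that stands for the gene, open points for another probe set and dotted lines at 2-fold. Fos and the filled point of Fosl2 lie beyond 2-fold in the panels with co-culture, and no probe set does so for conditioned medium against regular medium, where the values run from -0.37 for Fosb to 0.37 for Jund.

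The JUN genes, which supply the obligate partners of FOS proteins, had co-culture signals above those of the other arrays by less than 2-fold on the probe sets used. Jun, the strongest transcriptional activator of the family, read 3003 in co-culture, 2320 in conditioned medium and 2404 in regular medium on probe set 1417409_at. Its other probe set, 1448694_at, read 913.7, 552.4 and 576.1 on the same arrays. The co-culture array was the highest on both probe sets and the other arrays lay close together. The log2 differences from regular medium were 0.32 and 0.67 in co-culture and -0.05 and -0.06 in conditioned medium.

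Junb, a weaker activator that can oppose JUN, read 2857 in co-culture, 2423 in conditioned medium and 2254 in regular medium. Its log2 difference from regular medium was 0.34 in co-culture and 0.10 in conditioned medium, and 2797 of 9393 genes lay above the first of these values. Jund, a family member that is widely expressed in resting and growing cells, read 7195 in co-culture, 5779 in conditioned medium and 4467 in regular medium on probe set 1449117_at. Jund was thus the member with the largest difference in conditioned medium, a log2 difference of 0.37 that 282 of 9152 genes exceeded. In co-culture it was 1.61-fold above regular medium, a log2 difference of 0.69, and 16.9% of genes differed upwards by 1.5-fold or more. The other probe set of Jund, 1440265_at, read 44.2, 50.5 and 48.9, just above the floor of 42.4, and carries little information on the gene.

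Egr1, the zinc finger factor, read 1396 in co-culture, 1085 in conditioned medium and 1002 in regular medium. The co-culture signal was the highest, by 1.39-fold over regular medium, which is a log2 difference of 0.48, and 2031 of 9393 genes lay above it. Conditioned medium gave a log2 difference of 0.11. Ier2, a small nuclear protein of the immediate early response family, read 3678 in co-culture, 2860 in conditioned medium and 2887 in regular medium. Its conditioned-medium and regular-medium signals were almost equal, and the log2 difference was 0.35 in co-culture against regular medium. Ier3, a regulator of cell survival also called IEX-1, read 7737 in co-culture, 9733 in conditioned medium and 9385 in regular medium. Co-culture was the lowest of its arrays, with a log2 difference of -0.28, and conditioned medium gave 0.05. Fosl1 and Ier3 were the 2 genes with the lowest of the 3 signals in co-culture, which was the lowest array for 38.9% of all bright genes.

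**Figure D3:**
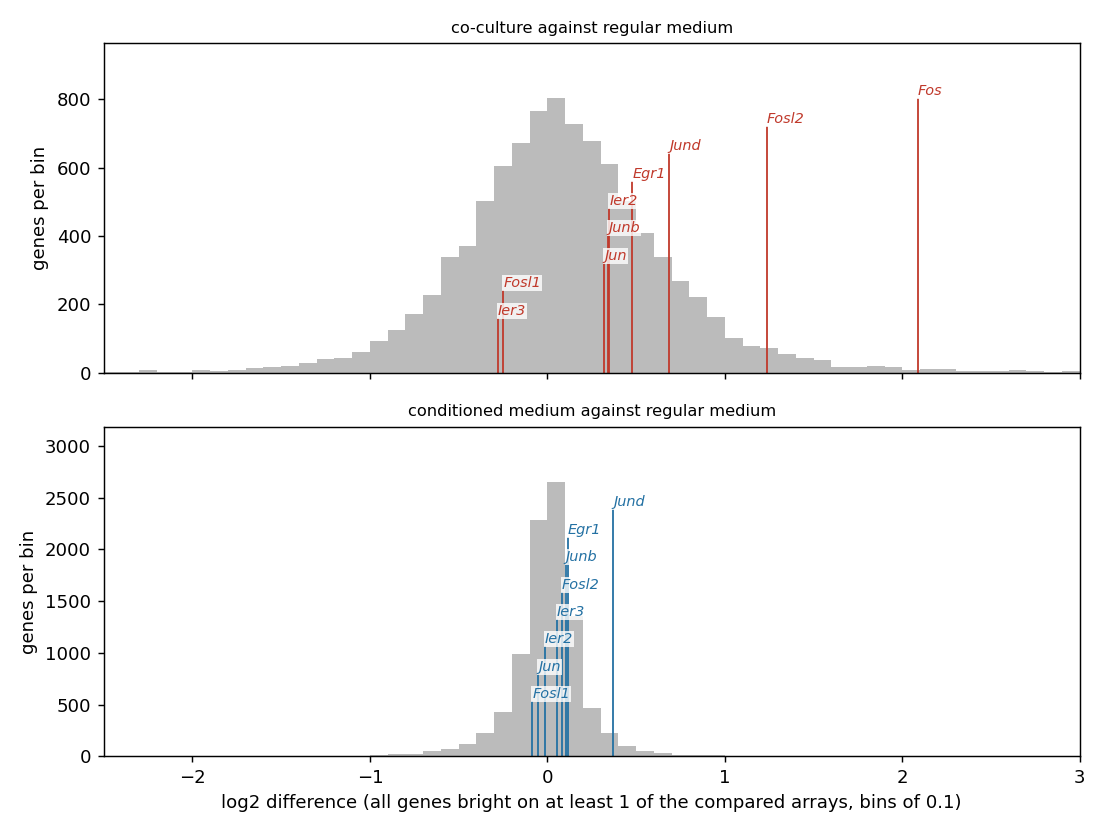
Number of genes (y axis, grey bars) by log2 difference (x axis, bins of 0.1) for co-culture (top) and conditioned medium (bottom) against regular medium, over genes bright on at least 1 of the compared arrays, with each bright member as a line whose height serves only to separate the labels. Fos at 2.09 and Fosl2 at 1.24 lie in the upper tail in co-culture, and Jund at 0.37 lies to the right of the other members in conditioned medium.

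Co-culture and conditioned medium were also compared directly, and this comparison shares arrays with those above. Of 9 bright members 2 were higher and 0 were lower in co-culture, where 5.83% and 2.6% of 9350 genes were called. Here too Fos was bright only in co-culture and could not be called lower. The median log2 difference of the members was 0.36, against 0.07 for all genes. Besides Fos and Fosl2, the members had log2 differences from -0.33 for Ier3 to 0.70 for Fosb, whose signals were below the bright threshold. Jund had 0.32 here, since its conditioned-medium signal already lay above that of regular medium.

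Genes with the pattern most like that of 3 members were taken by the distance in the pair of log2 differences from regular medium, over 9412 genes above the floor on all 3 arrays and bright on at least 1. Closest to Fos were Ifi35 at a distance of 0.020, Tap2 at 0.059, Scarb2 at 0.093, Gpa33 at 0.14 and Eif2ak2 at 0.14. Ifi35 had a log2 difference of 2.09 in co-culture and 0.23 in conditioned medium. Closest to Egr1 were Hgsnat, Dync1li2, Notch2, Cryzl1 and Asns, at distances of 0.0032 to 0.0100. Closest to Fosl1 were Mrm3, Inpp1, Mrpl55, Gcfc2 and Pdf, at distances of 0.0014 to 0.010. With 3 arrays this likeness rests on 2 numbers per gene.

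Other immediate early genes were followed as a list of 34, of which 31 were bright. Of these, 3 were higher and 0 were lower in co-culture than in regular medium, against 5.81% and 2.76% of all 9393 genes, and the median log2 difference was 0.16. Klf10, a Kruppel-like zinc finger factor induced by TGF-beta, read 4348 in co-culture, 1260 in conditioned medium and 1195 in regular medium and was 3.64-fold higher than in regular medium. Of the other Kruppel-like factors in the list, Klf6 was 2.61-fold higher, Klf4 was 2.53-fold higher and Klf2 was not called, with a log2 difference of 0.16. Ccn1 and Ccn2, secreted matricellular proteins, had log2 differences of -0.81 and -0.70, and Myc and Phlda1 had 0.60 and 0.81. In conditioned medium none of the 30 bright genes was called, with a median of 0.01.

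The 13 measured basic leucine zipper partners outside the FOS and JUN families held 10 bright genes, of which 2 were higher and 0 were lower in co-culture than in regular medium, with a median of 0.22. The same all-gene shares of 5.81% and 2.76% stand beside this count, which holds for the probe sets used. Over their bright probe sets, Creb1 ran from -2.65 to 0.37 and Atf2 from -0.81 to 0.08. Atf3, a stress-induced partner of JUN proteins, read 2888 in co-culture, 657.6 in conditioned medium and 686.4 in regular medium, and was 4.21-fold higher than in regular medium. Mafk, a small MAF protein without a transactivation domain, read 875.7 in co-culture, 295.5 in conditioned medium and 392.5 in regular medium, 2.23-fold above the last of these in co-culture. Crem, a cyclic AMP response factor, had a log2 difference of -0.96. Jdp2, a repressor that pairs with JUN proteins, had 0.53.

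Among the serum response and ternary complex factors, which act upstream of Fos and Egr1, 1 of 5 bright genes was higher and 0 were lower in co-culture than in regular medium, where 5.81% and 2.76% of all genes were called, with a median of 0.30. Mrtfa, the actin-regulated coactivator of serum response factor, read 1314 in co-culture, 576.0 in conditioned medium and 515.0 in regular medium, 2.55-fold higher than in regular medium. Srf itself had a log2 difference of 0.77, Elk4 0.30 and Elk3 -0.34. Over their bright probe sets, Srf ran from 0.39 to 0.77, Elk4 from -0.56 to 0.30 and Elk3 from -0.34 to 0.23. Of 10 bright MAP kinases and activating kinases 0 were called in any comparison on the probe sets used. Their median was -0.09 in co-culture against regular medium, with Araf at -0.84 and Map2k3 at -0.56. Other bright probe sets reached -1.67 for Mapk14, -1.07 for Map2k3 and -1.06 for Braf, and upwards 0.65 for Mapk9. The other EGR genes Egr2, Egr3 and Egr4 were not bright on any array, and the corepressors of EGR1, Nab1 and Nab2, had log2 differences of -0.13 and 0.17. Of 7 bright factors that modify or degrade AP-1 proteins 0 were called. Gsk3b, a kinase that marks JUN for degradation, had 0.89 in co-culture against regular medium on the probe set used. Its 5 bright probe sets ran from 0.04 to 1.11. The pseudokinase gene Trib2 had 0.76 in co-culture against conditioned medium but 0.09 against regular medium. Its conditioned-medium signal was the lowest of the 3, with -0.67 against regular medium.

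Of 19 bright genes reported as targets of AP-1 and EGR factors, 1 was higher and 4 were lower in co-culture than in regular medium, against 5.81% and 2.76% of all 9393 genes. The median log2 difference of the targets was -0.09, against 0.07 for all genes. The counts and the median hold for the probe sets used. Over their bright probe sets, Cxcl1 ran from -0.82 to 1.30 and Cd44 from -1.04 to -0.19. Vegfa ran from -0.33 to 0.70 and Lif from -0.61 to 0.76. The matrix metalloproteinase gene Mmp10 read 52.3 in co-culture, 126.5 in conditioned medium and 177.1 in regular medium, 3.39-fold lower than in regular medium. Mmp3, another stromelysin, was 2.78-fold lower, the urokinase receptor gene Plaur 2.47-fold lower and Timp1, an inhibitor of these proteases, 2.01-fold lower. In this comparison Mmp10 and Mmp3 were bright only in regular medium, so they could be called lower but not higher. Sphk1, a sphingosine kinase, was 2.13-fold higher. Against conditioned medium 1 of 18 was higher and 2, Mmp3 and Plaur, were lower in co-culture, where 5.83% and 2.6% of all genes were called. Of these arrays Mmp3 was bright only in conditioned medium, so again it could not be called higher. In conditioned medium against regular medium 0 of 19 were called.

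**Figure D4:**
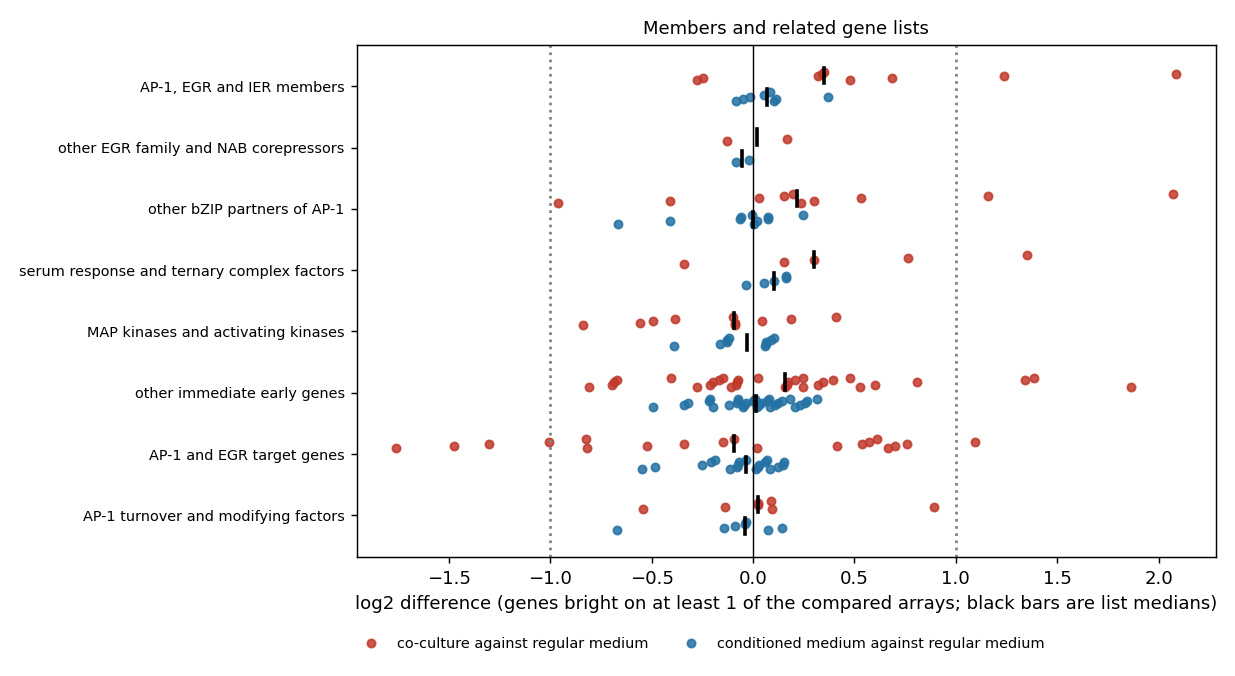
Log2 difference (x axis) of genes bright on at least 1 of the compared arrays, for the members and each related list (rows), in co-culture (red) and conditioned medium (blue) against regular medium, with black bars at the medians and dotted lines at 2-fold. The co-culture median is 0.35 for the members, 0.16 for other immediate early genes and -0.09 for target genes, and no conditioned-medium point lies beyond 2-fold.

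The calls on the members were repeated under 12 other settings of scaling, floor, brightness, probe set and fold. Fos was called higher in co-culture than in regular medium under 11 of the 12, with log2 differences of 1.56 to 2.23, and it lost the call where the brighter array had to reach the 80th percentile of signal. Fosl2 was called under 9 of the 12, with 0.24 to 1.37. Jund, at 0.27 to 0.83, was called under 1 of the 12, that with a 1.5-fold rule. The sign of each member's co-culture difference was the same under every setting that gave it a value, except that Fosb was at 0 with the highest floor.

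**Figure D5:**
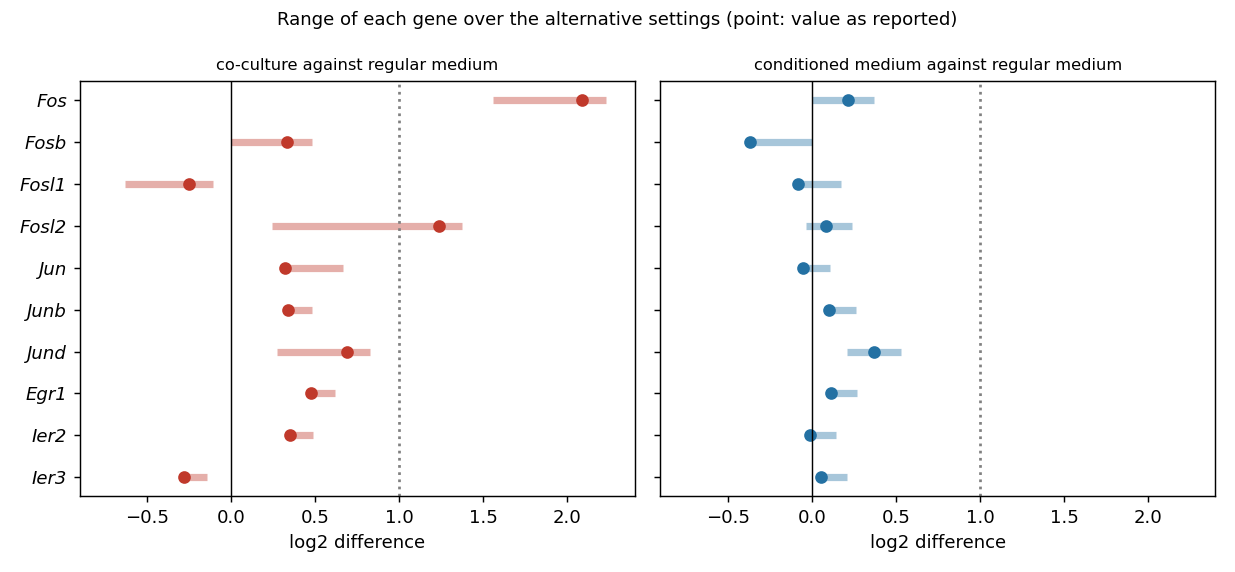
Range (bars) of the log2 difference (x axis) of each gene over the alternative settings and its value as reported (points), for co-culture (left) and conditioned medium (right) against regular medium, with a dotted line at 2-fold. Fosl2 in co-culture ranges most widely, from 0.24 to 1.37, and the conditioned-medium bars all lie below 2-fold.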

How the data were processed

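RNA from 4T1 cells was hybridised to Affymetrix Mouse Genome 430 2.0 arrays, 1 array per condition, and groups were taken from the labels. The deposited values are linear intensity values that the authors made with MAS5, as the submitters' processing notes state. Its version and target level are not stated there. Their 2%-trimmed means were 498.0, 497.7 and 497.8 for co-culture, conditioned medium and regular medium, so no further scaling was applied. At or below the floor were 40.7%, 41.4% and 38.0% of probe sets.

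Of 45037 probe sets, 34945 had 1 gene symbol, 932 several and 9160 none. Gene IDs gave a current symbol for 34741, and 18193 genes resulted. The size rule was run over all genes, and its code was checked on simulated arrays with known fold changes. No statistical test of a difference between conditions was run. Members, lists and settings were chosen with earlier results of these data known, so their counts are descriptions. Named genes were all members, list genes past the size rule, and the 2 largest differences of a list without any. Ccn1, Ccn2, Myc, Phlda1, Klf2, Crem, Jdp2, Srf, Elk3 and Elk4 were chosen after their values were seen. So were the list genes named for the values of their other probe sets. Some genes of the lists were not analysed here. The tools were pandas 2.3.3, NumPy 2.4.6, SciPy 1.17.1 and Matplotlib 3.10.9 under Python 3.11.15.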

Additional observations from a re-analysis of the deposited data

How the results depend on the processing

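No paired analysis was possible because each condition had 1 array, and for the same reason no replicate could be left out. A single-gene value counts as kept where its call was the same, a count where it stayed within 1.5 times, and the members' median where it moved by less than 1.5-fold. Of 357 values of single members under the 12 settings, 348 kept their call, 8 lost it, 1 gained it and 0 changed sign from a called value. The losses were Fos in both co-culture comparisons when the brighter array had to reach the 80th percentile, and Fosl2 in both with a 3-fold rule, with the mean over probe sets, or with its other probe set, a setting added after the data were seen. In each of these 4 settings 1 member was called higher in place of 2. Ier3 has no value when probe sets with marked names are left out. The median of the bright members moved by less than 1.5-fold under each of the 12 settings, and the medians of the other lists were not recomputed. Median scaling moved the median of all genes to 0.21 in co-culture and 0.17 in conditioned medium, from the 0.07 and 0.01 above. With it the sign of Fosl1, Jun and Ier2 in conditioned medium turned, to 0.07, 0.11 and 0.14. Fosl1 in conditioned medium also turned to 0.04 with the mean over probe sets and to 0.17 with its other probe set. Fosl2 there turned to -0.04 with its other probe set.

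Over all genes, co-culture against regular medium had 546 genes higher and 259 lower. Median scaling gave 801 higher and 167 lower, a share of 82.7% higher among the calls as against 67.8%. The filter at the floor gave 429 lower, the 80th percentile filter 303 higher and 132 lower, the mean over probe sets 348 higher, the 1.5-fold rule 1586 and 926, and the 3-fold rule 164 and 58. Conditioned medium against regular medium had 10 higher and 28 lower. Here median scaling gave 25 and 18, with 58.1% higher in place of 26.3%, and quantile normalization 15 and 26, with 36.6%. The 60th percentile floor gave 2 and 1, the filter at the floor 59 and 200, the 80th percentile filter 1 and 1, the mean over probe sets 12 lower, the 1.5-fold rule 69 and 134, and the 3-fold rule 5 and 12. Co-culture against conditioned medium had 545 higher and 243 lower. The 80th percentile filter gave 282 and 141, the mean over probe sets 351 higher, the 1.5-fold rule 1579 and 930, and the 3-fold rule 177 and 56. The cause of these shifts was not tested beyond what each setting itself changes. Signal over background limits Fosb, the dimmer probe set of Jund, and Fos in conditioned and regular medium.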
